A study of Mus musculus with 12 samples.

Results

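Genes that hepatocytes use to make the proteins of blood plasma were measured in 3 blood cell populations of the mouse fetal liver. The set is a list of 39 gene symbols, with no threshold on a value measured here, but it was chosen with earlier results of these data known. Of the 39, 38 have a probe set that carries 1 gene symbol, out of 19937 genes with such a probe set. Complement *C3* does not and is not analysed here. Of the 38, 35 encode secreted plasma proteins, and *Fabp1*, *Hnf4a* and *Pcbd1* encode proteins that act inside the cell. The populations were hematopoietic stem and progenitor cells (HSPC; the arrays carry the label HSC), erythroblasts (ERY) and megakaryocytes (MEG), all from livers of stage E14.5, with 4 arrays each and no genetic change or drug named in the labels. HSPC were depleted of cells with lineage antigens, CD71 and Ter119 among them, and sorted for Sca1. ERY were purified straight from the liver suspension with magnetic beads against Ter119. MEG were the product of a culture: KIT-positive progenitors were expanded with stem cell factor and thrombopoietin, matured with thrombopoietin alone and then enriched with beads against CD41. MEG are therefore the one population that had left the liver for a culture dish, and culture and lineage cannot be told apart in these data. Nothing in the labels says whether the 4 arrays of a population came from separate litters, so the p values measure the spread between these arrays.

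At this stage the liver is the main site of blood formation, and hematopoietic cells lie between and against the hepatoblasts and young hepatocytes that secrete albumin, alpha-fetoprotein, apolipoproteins, clotting factors and protease inhibitors. Transcription of these genes in hepatocytes depends on a small network of liver factors, among them HNF4A, the FOXA proteins and C/EBP alpha; the product of *Pcbd1* is a transcriptional cofactor and also an enzyme of tetrahydrobiopterin recycling. Some of the genes are also transcribed outside hepatocytes, *Apoe* and *Apoc1* by macrophages being the familiar case. In bulk RNA, fewer cells of one type and less RNA per cell cannot be told apart, and neither can a transcript made by the sorted cells from one carried along with them.

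Upstream sequence is shown for *Alb*, *Afp*, *Apob* and *Ahsg*, which are described array by array below. Each holds the C/EBP recognition sequence within 120 bases of the start. They were picked from the genes with such a match after the values were known. *Itih2*, *Fgb* and *F9* also hold a match within 120 bases and are not shown. The windows are from RefSeq (GRCm38.p6), run 5′ to 3′ over the 120 bases before the annotated start of each gene, all on the plus strand, and capitals mark the match to TTGCNNAA or its reverse complement.
*Alb*, chr5:90460750-90460869: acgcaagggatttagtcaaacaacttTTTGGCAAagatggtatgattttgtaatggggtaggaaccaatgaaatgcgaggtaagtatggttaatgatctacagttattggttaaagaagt
*Afp*, chr5:90490594-90490713: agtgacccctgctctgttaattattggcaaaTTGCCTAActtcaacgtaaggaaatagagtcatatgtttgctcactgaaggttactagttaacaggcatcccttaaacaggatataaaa
*Apob*, chr12:7977557-7977676: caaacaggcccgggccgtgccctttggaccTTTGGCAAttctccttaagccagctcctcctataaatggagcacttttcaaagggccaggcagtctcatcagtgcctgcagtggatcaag
*Ahsg*, chr16:22891895-22892014: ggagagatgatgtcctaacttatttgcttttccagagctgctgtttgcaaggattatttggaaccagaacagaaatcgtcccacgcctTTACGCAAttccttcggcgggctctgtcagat
The match begins 94 bases before the start of *Alb*, 89 before that of *Afp*, 90 before that of *Apob* and 32 before that of *Ahsg*, on the other strand in all but *Afp*. A match is a description of the letters and not a binding site.

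Matches to 6 recognition sequences are given for both strands of the 250 bases before each start, from a search made after the expression values were known; 30 of the 38 genes are in the promoter table, with 36 windows. The C/EBP sequence TTGCNNAA was in 12 windows (33.3%, against 9.56% of all 32851 windows of the same length), those of *Alb*, *Afp*, *Rbp4*, *Hpx*, *Apoa2*, *Apob*, *Fga*, *Fgb*, *F9*, *Itih2*, *Ahsg* and *Fabp1*, and the FOXA sequence TGTTTAC in 4 (11.1%, against 3.17%). AGGNCAAAG, a direct repeat read by nuclear receptors, was in 3 windows (8.33%, against 1.8%), while CAAAGTCCA, a strict HNF4 sequence, was in 0 of 36 and in 0.384% of all. The GATA sequence AGATAA was in 5 windows (13.9%, against 9.99%) and TATAAA in 9 (25%, against 12.4%). *F9*, whose window holds the C/EBP sequence, was not called in any of the comparisons below.

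Values are the authors' log2 RMA values, on which 1 unit is a 2-fold difference, and levels are compared between populations within a gene, not between genes. A gene was called when limma, fitted to all 12 arrays with 1 mean per population, gave more than a 2-fold difference at a Benjamini-Hochberg false discovery rate (FDR) under 5% over all 19937 genes. The population labels were checked against marker genes: all 7 MEG markers were called higher in MEG than in the other populations, all 6 ERY markers higher in ERY, and the 4 measured HSPC markers were higher in HSPC than in ERY. Against MEG, 3 of these 4 were higher in HSPC and *Meis1* was lower (MEG minus HSPC 1.80). As a reading of background, the 1027 olfactory receptor genes, which blood cells are not known to use, had medians from 3.98 to 4.74 on 11 of the arrays and 5.70 on MEG array 4, which stands apart. Within populations, HSPC array 2 and ERY array 1 stood apart for the plasma protein genes, and results without both, a setting added after the values were seen, are given beside the main ones.

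Most of the plasma protein genes were highest in ERY, intermediate in HSPC and lowest in MEG. Against ERY, 31 of the 38 genes were called lower in MEG, 1 was called higher and 6 were not called, where 7.77% of all genes were called lower and 8.75% higher; the median difference over the 38 was -3.56, beside -0.02 over all genes. Against HSPC, MEG was called lower for 23 genes and higher for 1, with 14 not called, where 11.4% of all genes were lower and 8.77% higher (median difference -1.41, beside -0.02 over all genes). ERY was called higher than HSPC for 28 genes and lower for 0, with 10 not called, where 8.35% of all genes were higher and 12.3% lower (median 1.63, beside 0.03). By limma's unadjusted p under 0.05 and with no fold limit, 1 gene was lower in ERY (*Hnf4a*), and *Apoe* was called lower in ERY in 3 of 26 alternative settings. The 3 comparisons share arrays and are not independent of each other. Because the genes were chosen with earlier results of these data known, the shares over all genes describe the set and do not test it. Without HSPC array 2 and ERY array 1 the counts were 31, 21 and 27 genes in the same order, with medians of -3.28, -1.07 and 1.83.

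**Figure D1:**
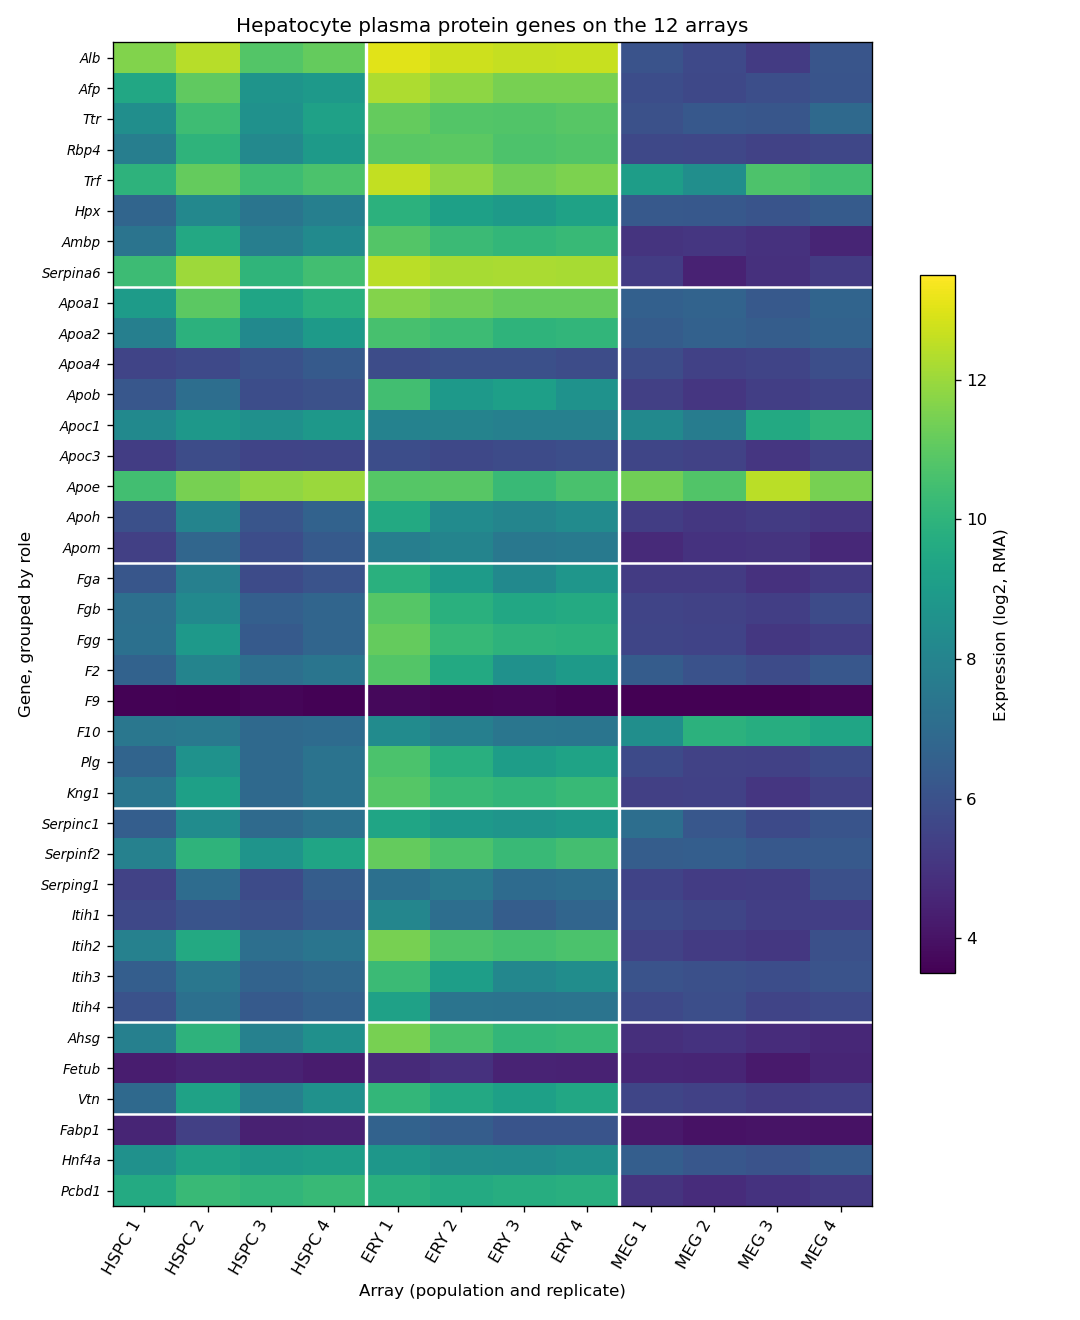
Expression (log2, RMA) of the 38 plasma protein genes on the 12 arrays, with genes as rows in blocks by role (from top: carriers, apolipoproteins, fibrinogen and clotting, protease inhibitors, fetuins and matrix, intracellular) and arrays as columns; colour is to be read along a row, since probe sets differ in brightness. Most rows are brightest in ERY and darkest in MEG, and HSPC array 2 is the brightest HSPC column for 34 of the 38 genes.

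The contrast with MEG was also read on single arrays. For 27 of the 38 genes, all 4 MEG arrays lie below all 8 HSPC and ERY arrays, which 6.75% of all genes show. The widest such gaps were in *Serpina6* (4.78 log2 units between the highest MEG array and the lowest HSPC or ERY array), *Alb* (4.68) and *Pcbd1* (4.44). The 11 genes without this order were *F10*, whose MEG arrays all lie above the others, and, with overlap, *Trf*, *Apoa4*, *Apoc1*, *Apoc3*, *Apoe*, *F9*, *Serpinc1*, *Serping1*, *Itih1* and *Fetub*. Set against the 95th percentile of the olfactory receptor genes on the same array, 22 of the 38 genes were at or below it on all 4 MEG arrays, and 4 were above it on all of them (*Trf*, *Apoc1*, *Apoe* and *F10*). Of all 19937 genes, 7326 were at or below it and 6687 above it on all 4 MEG arrays. This percentile was 7.35 on MEG array 4 and 5.64 to 6.04 on the other MEG arrays. *Hpx*, *Apoa1*, *Apoa2*, *F2*, *Serpinc1*, *Serpinf2* and *Hnf4a* were above it on every MEG array except array 4. In HSPC 31 genes and in ERY 33 were above it on all 4 arrays, beside 11938 and 10531 of all 19937 genes. Where MEG values lie in this range, the difference is one from the array's background and can understate the ratio of transcripts. The olfactory receptor genes were less steady in MEG, with a median SD of 0.61 over its 4 arrays, beside 0.14 in HSPC and 0.22 in ERY. For the 38 genes the median SD in MEG was 0.18, so the olfactory reading is only a rough guide to their background.

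Of the carriers of hormones, metals, heme and vitamins, 8 of 8 were called lower in MEG than in ERY, 7 of 8 lower in MEG than in HSPC, and 7 of 8 higher in ERY than in HSPC. The shares of all genes in the same order were 7.77%, 11.4% and 8.35%. *Alb* (probe set 10523062) encodes albumin, the most abundant plasma protein and a carrier of fatty acids and hormones. Its values were 11.59, 12.43, 10.83 and 11.14 in HSPC, 13.06, 12.72, 12.63 and 12.66 in ERY, and 6.05, 5.69, 5.23 and 6.14 in MEG. The 3 ranges do not overlap, and the ERY arrays lie near the highest value of each array (13.61 to 13.76). MEG was lower than ERY by a log2 difference of -6.99 (SE 0.31, adjusted p = 3.83e-09 by limma), which is 127-fold, and lower than HSPC by 52.7-fold, whereas ERY and HSPC differed by 2.41-fold.

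*Serpina6*, which encodes corticosteroid-binding globulin, had the most negative MEG minus ERY difference of the set, -7.31 (SE 0.35, adjusted p = 9.05e-09). It was read at 10.36, 12.04, 10.04 and 10.49 in HSPC, at 12.47, 12.21, 12.22 and 12.21 in ERY, and at 5.26, 4.46, 4.90 and 5.24 in MEG. HSPC array 2 lies just below the ERY arrays and the other 3 HSPC arrays lie well below it, with all MEG arrays lower still. *Afp*, the fetal counterpart of albumin, rose from 9.49, 11.07, 8.66 and 8.88 in HSPC to 12.25, 11.81, 11.43 and 11.46 in ERY (difference 2.21, SE 0.42, adjusted p = 0.00121). In MEG it was read at 5.85, 5.68, 5.91 and 6.09, a difference of -5.86 from ERY. *Alb* and *Afp* are neighbouring genes, and both were called in all 3 comparisons.

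*Rbp4*, the plasma carrier of retinol, and *Ttr*, transthyretin, which carries thyroxine and the retinol carrier, differed between MEG and ERY by -5.27 and -4.58. *Ambp*, the precursor of alpha-1-microglobulin and bikunin, differed by -5.49 and *Hpx*, the heme scavenger hemopexin, by -3.10. All 4 were also called lower in MEG than in HSPC (from -1.30 for *Hpx* to -3.34 for *Ambp*) and higher in ERY than in HSPC (from 1.76 for *Ttr* to 2.15 for *Ambp*). *Trf*, transferrin, the iron carrier of plasma, was the exception among the carriers. It was read at 9.97, 11.14, 10.38 and 10.67 in HSPC, 12.59, 11.85, 11.36 and 11.52 in ERY and 9.05, 8.43, 10.69 and 10.48 in MEG. MEG arrays 3 and 4 lie inside the HSPC range and arrays 1 and 2 below it. MEG was called lower than ERY (-2.17, SE 0.47, adjusted p = 0.00374) but not lower than HSPC (-0.88, SE 0.47, adjusted p = 0.173). ERY minus HSPC, at 1.29 (SE 0.47, adjusted p = 0.053), was not called, and was called in 11 of 26 alternative settings.

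**Figure D2:**
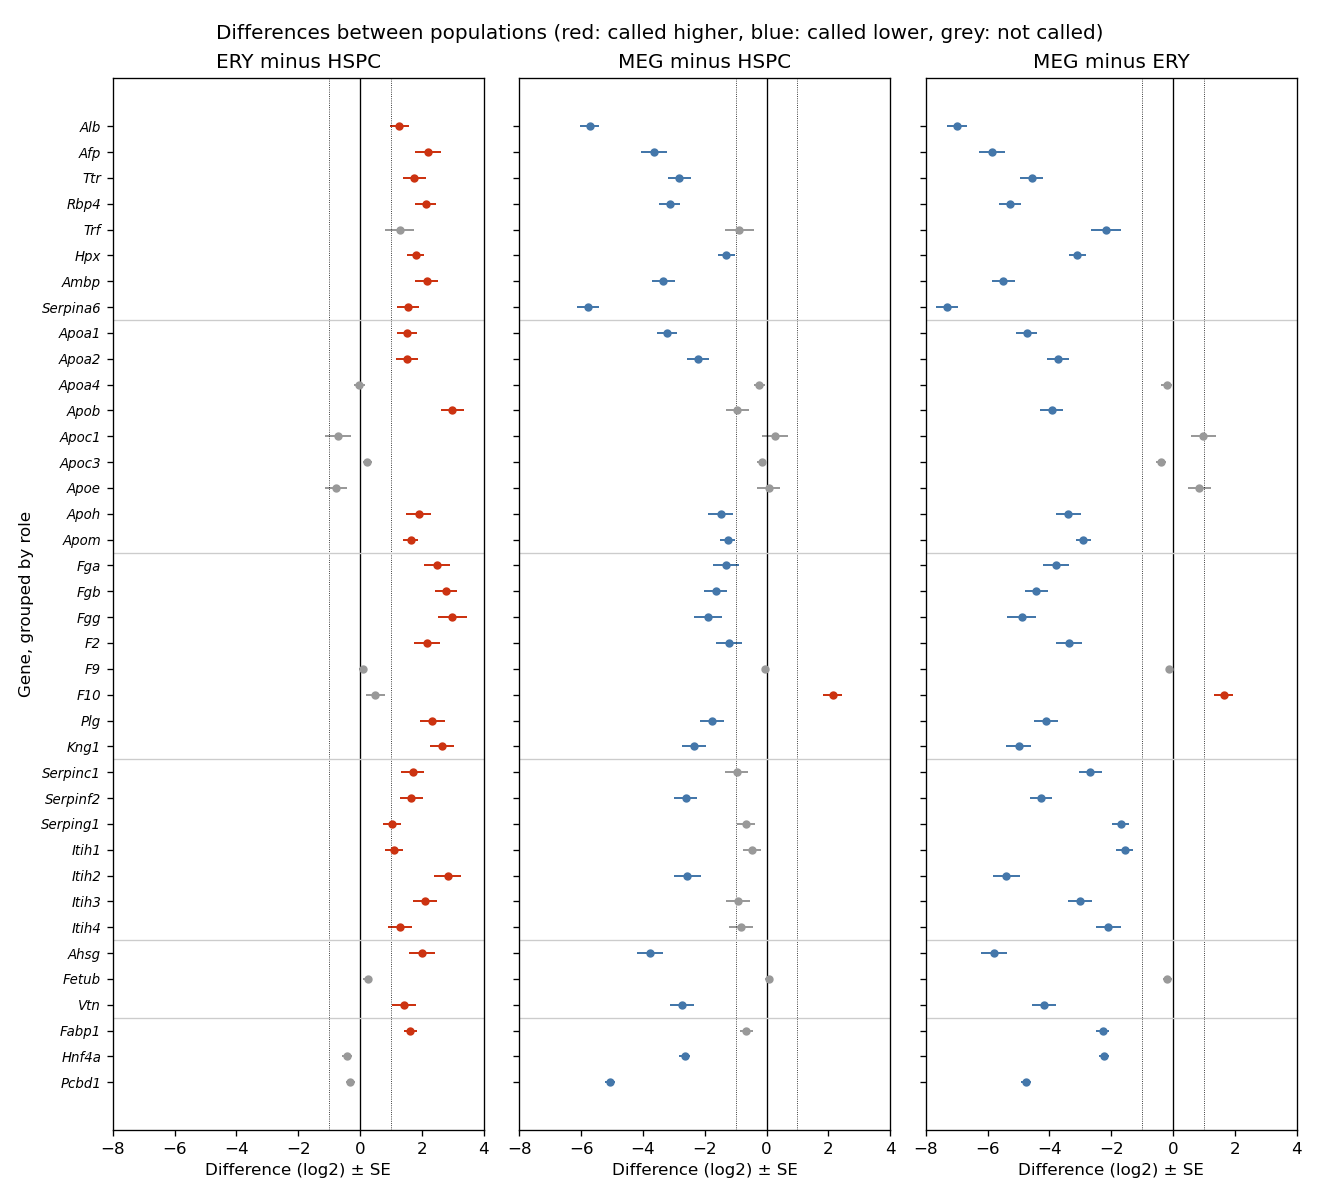
Differences (log2, points) with their SE (bars) between populations for the 38 genes, ordered by role from carriers at the top to intracellular proteins at the bottom; red marks genes called higher, blue called lower and grey not called, and dotted lines mark 2-fold. MEG minus ERY reaches from -7.31 in *Serpina6* to 1.64 in *F10*.

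The apolipoproteins, the protein parts of lipid particles, were split. Of the 9, 5 were called lower in MEG than in ERY and higher in ERY than in HSPC, and 4 lower in MEG than in HSPC. In that order, 7.77%, 8.35% and 11.4% of all genes were called. *Apoa1* and *Apoa2*, the main proteins of high-density lipoprotein, differed between MEG and ERY by -4.74 and -3.73, *Apoh*, beta-2-glycoprotein I, by -3.39 and *Apom*, a carrier of sphingosine-1-phosphate, by -2.90. *Apob*, the structural protein of very low and low-density lipoprotein, was read at 6.23, 7.11, 5.85 and 5.98 in HSPC, at 10.49, 8.90, 9.13 and 8.59 in ERY and at 5.40, 5.07, 5.34 and 5.56 in MEG. Its rise from HSPC to ERY of 2.99 (SE 0.37, adjusted p = 4.99e-05, 7.94-fold) was shared in size only by *Fgg* within the set, and its MEG and HSPC arrays, though not overlapping, were not called apart (-0.95, adjusted p = 0.0684).

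*Apoe* and *Apoc1*, adjacent genes, ran against the rest of the group. *Apoe* was read at 10.47, 11.46, 11.84 and 12 in HSPC, 10.85, 10.89, 10.26 and 10.64 in ERY and 11.35, 10.79, 12.46 and 11.44 in MEG, and *Apoc1* at 8.26, 8.82, 8.53 and 8.82, at 7.94, 7.97, 7.86 and 7.84, and at 8.23, 7.68, 9.58 and 10.04 in the same order. *Apoe* overlaps between all 3 populations, and neither gene was called in any comparison. The MEG minus ERY difference was 0.85 (SE 0.37, adjusted p = 0.121) for *Apoe* and 0.98 (SE 0.41, adjusted p = 0.107) for *Apoc1*, so that differences near 2-fold are within the uncertainty. *Apoa4* and *Apoc3* had low values in all 3 populations, with means from 5.41 to 5.90, and were not called; they lie next to *Apoa1* in the order *Apoa1*, *Apoc3*, *Apoa4*, so that MEG minus ERY along this cluster read -4.74, -0.39 and -0.21.

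Among fibrinogen chains and clotting factors, 6 of 8 were called lower in MEG than in ERY, the same number lower in MEG than in HSPC and the same number higher in ERY than in HSPC. All genes had shares of 7.77%, 11.4% and 8.35% in these comparisons. The 3 fibrinogen chains, which assemble into one protein and are encoded side by side, moved together: *Fga*, *Fgb* and *Fgg* were higher in ERY than in HSPC by 2.48, 2.77 and 2.99, and MEG minus ERY was -3.80, -4.42 and -4.90. *Fgg* was read at 7.19, 8.91, 6.33 and 6.76 in HSPC, at 11.13, 10.19, 9.98 and 9.88 in ERY and at 5.58, 5.53, 5.14 and 5.34 in MEG. *Fga* (probe set 10492748) gave 6.18, 7.87, 5.77 and 6.07 in HSPC, 9.83, 8.97, 8.25 and 8.76 in ERY and 5.25, 5.24, 4.92 and 5.19 in MEG. Its second probe set, 10492755, showed the same order at lower values, 5.29 to 5.81 in HSPC, 6.46 to 8.5 in ERY and 4.93 to 5.01 in MEG. The call of *Fga* as lower in MEG than in HSPC (-1.32, SE 0.42, adjusted p = 0.0276) was lost without HSPC array 2 and in 9 other settings.

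*Kng1*, kininogen, *Plg*, plasminogen, and *F2*, prothrombin, differed between MEG and ERY by -5.0, -4.11 and -3.37. *F2* was lower in MEG than in HSPC by -1.20 (SE 0.42, adjusted p = 0.0449), a call that was lost in 17 of 26 settings. *F9*, factor IX, was at background in all 3 populations, between 3.44 and 3.72 on the 12 arrays. *F10*, factor X, was the one gene of the set that rose in MEG: it was read at 7.47, 7.55, 6.93 and 6.99 in HSPC, at 8.31, 7.80, 7.44 and 7.37 in ERY and at 8.43, 9.93, 9.73 and 9.39 in MEG. Each MEG array lies above each ERY and HSPC array, array 1 narrowly. MEG exceeded HSPC by 2.14 (SE 0.31, adjusted p = 0.00022, 4.39-fold) and ERY by 1.64 (SE 0.31, adjusted p = 0.00143, 3.12-fold).

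**Figure D3:**
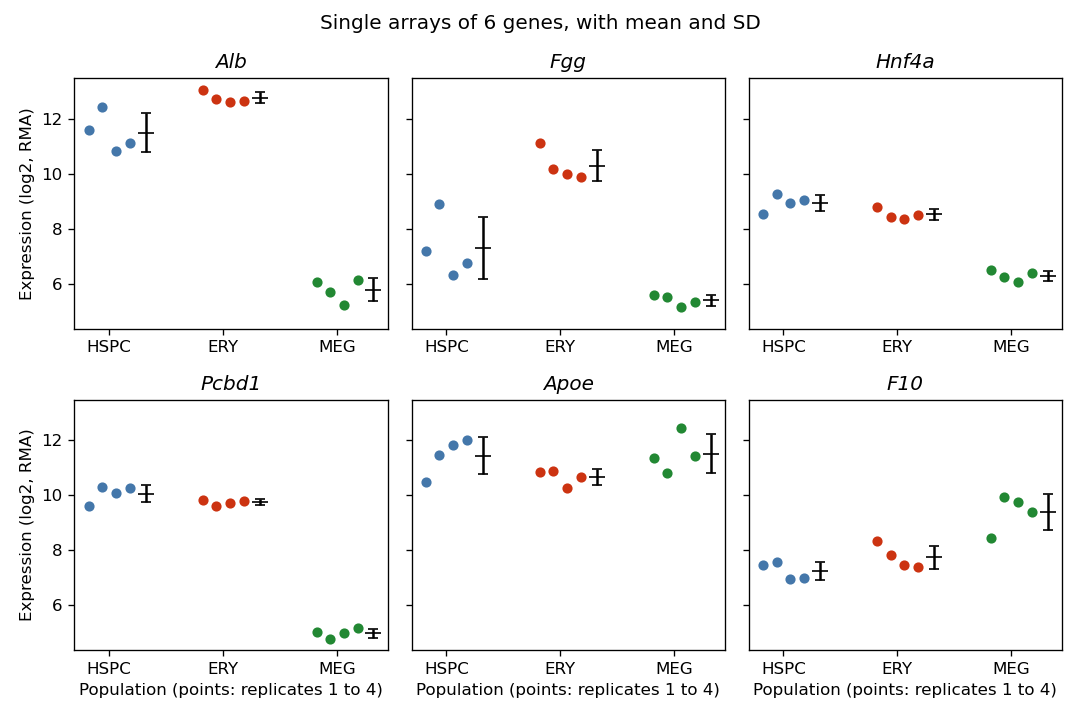
Expression (log2, RMA) on single arrays (coloured points, replicates 1 to 4 from left to right) with mean and SD (black) for 6 genes in HSPC, ERY and MEG. *Alb* and *Fgg* step up from HSPC to ERY and fall in MEG, *Hnf4a* and *Pcbd1* overlap between HSPC and ERY and fall in MEG, *Apoe* overlaps throughout and *F10* is highest in MEG.

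All 7 protease inhibitors were called higher in ERY than in HSPC and lower in MEG than in ERY, but only 2 lower in MEG than in HSPC. Shares over all genes were 8.35%, 7.77% and 11.4% in that order. Without ERY array 1, the calls of *Itih1* (1.10, then 0.77) and *Itih4* (1.28, then 0.80) as higher in ERY than in HSPC were lost, and that of *Itih4* also without HSPC array 3 (1.21). That of *Serping1* (1.03) was lost without HSPC array 1 (0.80), HSPC array 3 (0.90) or ERY array 2 (0.92). The 2 lower in MEG than in HSPC were *Itih2* (-2.56), a heavy chain of the inter-alpha-trypsin inhibitor that stabilizes hyaluronan matrix, and *Serpinf2* (-2.62), alpha-2-antiplasmin. *Itih2* was read at 7.88, 9.59, 7.14 and 7.40 in HSPC, at 11.45, 10.71, 10.54 and 10.66 in ERY and at 5.46, 5.25, 5.11 and 5.95 in MEG, with no overlap between populations. The other heavy chains, *Itih1*, *Itih3* and *Itih4*, lie side by side in the genome and differed between MEG and ERY by -1.57, -3.01 and -2.09. *Serpinc1*, antithrombin, and *Serping1*, the C1 inhibitor, differed by -2.68 and -1.70. For these 5 genes the MEG minus HSPC differences ranged from -0.97 (*Serpinc1*, adjusted p = 0.0623) to -0.47 (*Itih1*, adjusted p = 0.231).

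Of the fetuins and matrix proteins, *Ahsg*, fetuin-A, an inhibitor of mineral deposition, was read at 7.87, 9.98, 7.91 and 8.52 in HSPC, 11.43, 10.59, 10.13 and 10.18 in ERY and 4.86, 4.96, 4.78 and 4.61 in MEG. The populations do not overlap, and MEG minus ERY was -5.78 (SE 0.42, adjusted p = 3.54e-07, 54.9-fold). *Fetub*, fetuin-B, is its neighbour in the genome and stayed between 4.23 and 4.92 on all arrays, with no call (MEG minus ERY -0.18, adjusted p = 0.43). *Kng1*, separated from *Fetub* by 2 protein-coding genes, differed by -5.0. *Vtn*, vitronectin, an adhesive plasma protein, was higher in ERY than in HSPC by 1.43 and lower in MEG than in ERY by a difference of -4.18.

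Of the 3 intracellular members, all were called lower in MEG than in ERY, 2 lower in MEG than in HSPC and 1 higher in ERY than in HSPC. Among all genes, 7.77%, 11.4% and 8.35% were called in these ways. *Hnf4a* (probe set 10478389), a nuclear receptor that drives many hepatocyte genes, was read at 8.54, 9.26, 8.93 and 9.05 in HSPC, 8.79, 8.41, 8.36 and 8.51 in ERY and 6.50, 6.23, 6.07 and 6.37 in MEG. *Pcbd1* (probe set 10363455) was read at 9.60, 10.28, 10.08 and 10.25 in HSPC, 9.83, 9.62, 9.72 and 9.80 in ERY and 5.01, 4.77, 4.96 and 5.16 in MEG. HSPC and ERY arrays of both genes overlap, and all MEG arrays are far below. MEG minus HSPC was -2.65 (SE 0.17, adjusted p = 3.36e-07) for *Hnf4a* and -5.08 (SE 0.16, adjusted p = 8.04e-10, 33.8-fold) for *Pcbd1*. ERY minus HSPC was -0.43 (SE 0.17, adjusted p = 0.0722) and -0.31 (SE 0.16, adjusted p = 0.168). The secreted proteins with a call, which needs a difference above 1, ranged from 1.03 (*Serping1*) to 2.99 (*Apob* and *Fgg*). Those without a call ranged from -0.78 (*Apoe*) to 1.29 (*Trf*). Of the secreted proteins, only *Apoe* and *Apoc1* (-0.71) lay below *Hnf4a* and *Pcbd1*, and the next lowest was *Apoa4* (-0.02). *Fabp1*, the liver fatty acid-binding protein, was higher in ERY than in HSPC by 1.62 (SE 0.21, adjusted p = 7.62e-05), as most secreted proteins were. Its MEG minus ERY difference was -2.28.

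The genes also varied together between the arrays of HSPC and of ERY, with a wider spread than that of all genes. In MEG their spread was narrower than that of all genes, and the array most often highest, array 4, led for 17 of the 38. The median SD of the 38 genes over 4 arrays was 0.69 in HSPC, 0.33 in ERY and 0.18 in MEG, beside 0.26, 0.14 and 0.28 over all genes. HSPC array 2 was the highest of its population for 34 of the 38, and for 9.45% of all genes, and exceeded the mean of the other 3 arrays by 1.18 in the median (range -0.27 to 2.15). ERY array 1 was the highest of its population for 30 of the 38, and for 18.8% of all genes, by 0.63 in the median (range -0.08 to 1.88).

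**Figure D4:**
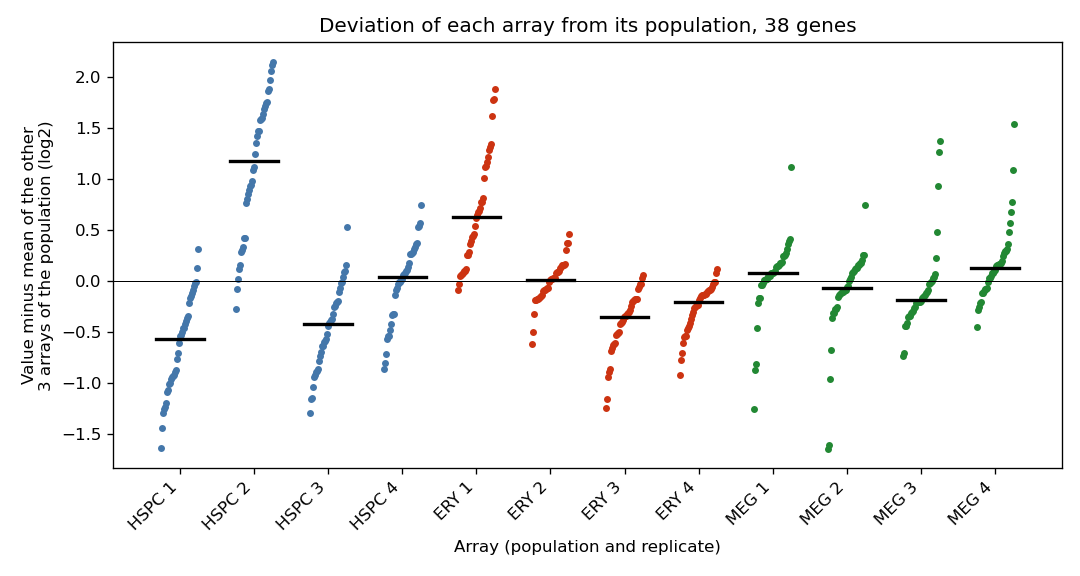
Value of each of the 38 genes on an array minus its mean over the other 3 arrays of that population (log2; points sorted within an array, black bar the median), for the 12 arrays. HSPC array 2 and ERY array 1 are shifted upward by 1.18 and 0.63 in the median, and MEG medians stay between -0.19 and 0.12.

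Markers of other cells moved with these 2 arrays only in part, and their part in the result was not tested. The median of 17 macrophage genes was 7.38 and 7.44 on HSPC arrays 1 and 2 and 6.29 and 6.42 on arrays 3 and 4, and ERY array 1 had the lowest macrophage median of its population, 8.16 beside 8.70 to 9.18. The median of 15 endothelial genes was 7.62 on HSPC array 2 and 6.66 to 7.0 on the other HSPC arrays. The median of 6 ERY markers was 7.85 on HSPC array 1 and 6.66 to 6.72 on the other 3.

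Over the 12 arrays, 31 of the 38 genes correlated above 0.8 (Pearson) with the mean of the set, each gene centred on its own mean and the set including the gene itself. The closest were *Apoa2* (0.993), *Ambp* and *Ahsg* (0.992 each), and *Apoe* (-0.455), *Apoc1* (-0.484) and *F10* (-0.64) ran the other way. The 12 points fall into 3 populations, so these values mostly restate the order of the populations. Outside the set, the 10 genes most like that mean were *Cpn1* (0.992), *Lcat* (0.986), *Serpind1* (0.985), *Adgrf5* (0.982), *Igf2* (0.981), *Nid2* (0.98), *Mpzl2* (0.978), *Agt* (0.976), *Cyp2d22* (0.975) and *Ube2c* (0.975). Of these, *Cpn1*, *Lcat*, *Serpind1* and *Agt* encode plasma proteins as well, and *Igf2* the fetal growth factor, at 8.55 ± 0.78 (SD, n = 4) in HSPC, 10.75 ± 0.05 in ERY and 5.89 ± 0.21 in MEG.

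Other products of hepatocytes were read from lists drawn up by function, also with earlier results of these data known. Of 47 measured further plasma protein genes, 19 were called lower in MEG than in ERY and 2 higher, 18 were higher and 1 lower in ERY than in HSPC, and 6 were lower and 2 higher in MEG than in HSPC. Over all genes, 7.77% were lower and 8.75% higher in MEG than in ERY, and 8.35% higher and 12.3% lower in ERY than in HSPC. Against HSPC, MEG was lower for 11.4% of all genes and higher for 8.77%, so 6 of 47 is near that share. The 3 with the largest MEG minus ERY differences were *Pros1*, protein S, an anticoagulant cofactor (4.33, SE 0.35, adjusted p = 1.15e-06), *Serpind1*, heparin cofactor II (-4.29), and *Pzp*, a broad protease inhibitor (-3.67). *Pros1* was read at 6.51, 6.45, 5.59 and 5.17 in HSPC, 5.63, 5.89, 5.55 and 5.49 in ERY and 9.22, 10.63, 10.5 and 9.5 in MEG. The other gene called higher in MEG was *F5*, factor V, which platelets store (10.06 ± 0.94 in MEG, 6.72 ± 0.44 in ERY and 5.97 ± 0.60 in HSPC).

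Of 34 hepatocyte enzymes and transporters, 10 were called lower in MEG than in ERY and 0 higher, and 8 were higher and 3 lower in ERY than in HSPC (median MEG minus ERY -0.36). Over all genes the shares were 7.77% and 8.75% in the first comparison and 8.35% and 12.3% in the second. The 3 lower in ERY do not exceed the share of all genes. The largest differences were in *Gys2*, liver glycogen synthase (-2.66), *Dlk1*, a surface protein of hepatoblasts (-2.61), and *Hgd*, an enzyme of tyrosine breakdown (-2.33). *Dlk1*, like *Hnf4a* and *Pcbd1*, was not called between HSPC and ERY, with 11.38 ± 0.42 and 10.87 ± 0.18, and 8.26 ± 0.24 in MEG. Of 17 other liver transcription factors, 3 were called lower in MEG than in ERY and 0 higher, beside 7.77% and 8.75% of all genes. The 3 were *Prox1* (-1.84), *Foxa3* (-1.10) and *Nr5a2* (-1.07). In ERY against HSPC 1 was higher, *Prox1* (1.39), and 3 were lower, *Cebpa*, which encodes C/EBP alpha (-2.18, adjusted p = 1.98e-05), *Hhex* (-2.03) and *Nr0b2* (-1.86). Of all genes, 8.35% were higher and 12.3% lower. The same 3 genes were called lower in MEG than in HSPC (-1.77, -1.33 and -1.89), with 0 of the list higher, so they were highest in HSPC and not low in ERY alone. In that comparison 11.4% of all genes were lower and 8.77% higher.

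Markers of the remaining cells of the fetal liver were read for the same contrast, and their part in it was not tested. Of 17 macrophage genes, 9 were called lower in MEG than in ERY and 1 higher, and 10 were higher in ERY than in HSPC, led by the iron exporter *Slc40a1* (-3.94), *Vcam1* (-3.46) and heme oxygenase, *Hmox1* (-2.37), the first and last of which red cell precursors also use. Over all genes, 7.77% were lower and 8.75% higher in MEG than in ERY, and 8.35% higher in ERY than in HSPC. The summed level of the macrophage list (log2 of the sum of linear values) was 11.97 to 12.37 in HSPC, 12.68 to 13.51 in ERY and 11.49 to 13.28 in MEG, overlapping between MEG and both others. That of the 38 plasma protein genes was 13.66 to 15.01, 15.23 to 16.0 and 12.27 to 13.35, with no overlap. Such sums are led by the brightest probe sets. In MEG the brightest of the 38 was *Apoe* (10.79 to 12.46), which was not called in any comparison.

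Markers of endothelium, mesenchyme and bile ducts were read in the same way. In MEG against ERY, 7.77% of all genes were lower and 8.75% higher. A few calls in lists this short are not read as results about them. Of 15 endothelial genes 3 were lower in MEG than in ERY and 3 higher (*Cdh5* -3.63, *Clec4g* 3.27 and *Esam* 2.33 being the largest), with a summed level of 11.29 to 12.16 in HSPC, 11.02 to 11.46 in ERY and 11.43 to 11.98 in MEG. Of 16 stellate and mesenchymal genes 1 was lower, *Dcn* (-1.88), and 0 higher; the next largest differences, *Hgf* (1.0) and *Cxcl12* (-1.0), were not called, and summed levels were 10.34 to 10.71, 10.68 to 11.06 and 10.19 to 10.87 in the same order. Of 9 biliary and epithelial genes 3 were lower, *Krt8* (-1.94), *Krt18* (-1.63) and *Cdh1* (-1.30), and 0 higher, with summed levels of 9.60 to 10.59, 10.21 to 10.53 and 9.12 to 9.45. *Krt8* and *Krt18*, the keratin pair of hepatocytes and other simple epithelia, were read at 8.07 ± 0.49 and 8.90 ± 0.76 in HSPC, 8.99 ± 0.23 and 8.15 ± 0.15 in ERY and 7.05 ± 0.29 and 6.51 ± 0.32 in MEG.

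Gene span, the genomic length from start to end, was set against the differences as a description across genes. Over the 38 genes the Spearman correlation of span was 0.27 with ERY minus HSPC and 0.39 with ERY array 1 minus the other ERY arrays. Over the 19852 genes with a span in RefSeq these values were 0.04 and 0.21; genes on one array share the library and are not independent.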

How the data were processed

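RNA of 12 samples, 4 each of HSPC, ERY and MEG, had been hybridized to GeneChip Mouse Gene 1.0 ST arrays. The values the authors deposited are on the log2 scale, 1 for each probe set on each array, from RMA (background correction, equalized distributions, probe summary; version and settings: not given in the sources used here). Array medians were 5.99 to 6.25; precision is limited by the number of arrays.

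Of 34760 probe sets, 21640 carry 1 symbol in the platform's annotation, which can be old, and were used; 1321 carry several and 11799 are not listed there. For 954 genes with several probe sets, the probe set of highest mean stood for the gene. No filter on low values was applied. Differences were fitted with limma 3.58.1 (R 4.3.3), after a test on simulated data. The members and lists were chosen with earlier results of these data known. Genes named are all members, the 3 genes of each list with the largest difference between MEG and ERY, the 10 genes most like the mean, and a few chosen after their values were seen: *F5*, *Cebpa*, *Hhex* and *Nr0b2*. Alternatives were other sample sets, normalizations, filters, floors and variance models. Python 3.11.15, pandas 2.3.3, numpy 2.4.6 and matplotlib 3.10.9 were used. Promoter windows came from RefSeq; some of the sequences searched in them are not reported here. The array files name no genome build.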

Additional observations from a re-analysis of the deposited data

Results flagged for a closer look

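Over the 38 genes and 3 populations, 114 groups of 4 arrays were examined for an array far from the other 3 (Dixon's test, critical value 0.829), and 4 groups held one, where chance alone gives about 1 in 20. *Itih4* on ERY array 1 was read at 9.23, with the other ERY arrays between 7.32 and 7.36. *Serpina6* on ERY array 1 was read at 12.47, beside 12.21 to 12.22. *Fabp1* on HSPC array 2 was read at 5.40, beside 4.42 to 4.54. *Fetub* on MEG array 3 was the single low value, 4.23 beside 4.52 to 4.57.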

How the results depend on the processing

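Over 26 alternatives (21 for the count of genes with all MEG arrays below the rest), each main count stayed within 1.5 times its value: 18 to 24 genes lower in MEG than in HSPC, 24 to 29 higher in ERY than in HSPC, 27 to 31 lower in MEG than in ERY, and 20 to 29 with all MEG arrays below the rest. Leaving out 1 array at a time gave 21 to 24, 26 to 29, 31 to 31 and 27 to 29. Of 2940 single values, 2873 kept their state (called or not called), 49 lost a call and 18 gained one. Direction was checked only where the main fit made a call, and 0 of these reversed. Differences that were not called could change sign, as *Apoe* did for MEG minus HSPC (-0.64 to 0.61). Centring on 50 ribosomal protein genes moved the median of all genes by 0.55 (MEG minus HSPC), 0.41 (ERY minus HSPC) and 0.14 (MEG minus ERY), and the share of calls that are higher from 43.5% to 80.8%, 40.5% to 66.6% and 53.0% to 61.0%; *Apoh*, *Apom*, *F2*, *Fga* and *Hpx* then lost their call against HSPC. Calls lost without HSPC arrays 3 and 4 were *Alb*, *Itih4*, *Serpina6* and *Serping1* (ERY above HSPC). Of 12 same-numbered pairs of arrays 4 correlated above 0.1 (from -0.41 to 0.33 over the pairs). Arrays of different numbers were not compared, so this cannot tell whether the numbers pair the samples. With the replicate number as a block, 22 genes were lower in MEG than in HSPC, 28 higher in ERY and 31 lower in MEG than in ERY. The cause of these changes was not tested.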
